A study of Mus musculus with 12 samples.

Results

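The genes described here are 10 markers of mural cells, the cells wrapped around the endothelium of blood vessels. They were chosen by name and matched to the count table by Ensembl identifier, 10 of 56980 genes. There were 7 pericyte genes (Pdgfrb, Rgs5, Kcnj8, Abcc9, Vtn, Notch3 and Anpep) and 3 smooth muscle genes (Acta2, Tagln and Myh11), and all 10 passed the filter on low counts with 19152 genes in all. Their levels come from bulk RNA-seq of hippocampus, with 12 libraries from male mice that each carry an identifier of their own. All mice carried AppNL-G-F, a knock-in of a humanised and mutated amyloid precursor protein gene at its own locus, which leads to amyloid-β deposits without overexpression, and 6 of them also carried the Trem2 KO, the loss of a lipid-sensing receptor of microglia. The 4 groups of 3 were AppNL-G-F at 3 and at 9 months of age, called App-KI, and AppNL-G-F with Trem2 KO at 3 and at 9 months, called Trem2-KO. No group without the knock-in was analysed here, so age and amyloid load cannot be told apart, and nothing in the labels says which part of Trem2 was deleted.

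Pericytes sit on capillaries within the basement membrane, and vascular smooth muscle cells form rings around arteries and arterioles. Pericytes are recruited by platelet-derived growth factor from the endothelium acting on PDGFRβ, and support the blood-brain barrier. Smooth muscle cells contract through smooth muscle actin and myosin, whose genes are switched on by serum response factor (SRF) and its partner myocardin. The borders are not sharp: Pdgfrb and Notch3 are made by both cell types, and Anpep and Pdgfrb also by fibroblasts of the vessel wall and the meninges. In bulk tissue, more cells of a type and more RNA per cell cannot be told apart.

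From each class 1 member was taken to show a promoter: Acta2, which varied most between mice of one group, and Vtn, which had the highest level. Vtn does not stand for the pericyte members, since its spread within groups was unusually large and it varied with Acta2 (r = 0.79). The promoters of Acta2 and Vtn, 250 bases before to 50 after the start, are printed from RefSeq (GRCm38.p6), which held 7 of the 10 members. Acta2 lay on the minus strand at chr19:34255324-34255623 and Vtn on the plus strand at chr11:78498870-78499169. Capitals mark the core of the site of RBPJ, the nuclear partner of Notch (TGGGAA on either strand), and sequences like the CArG box, the site of SRF, with up to 1 G or C among the 6 A or T bases of its core.
Acta2: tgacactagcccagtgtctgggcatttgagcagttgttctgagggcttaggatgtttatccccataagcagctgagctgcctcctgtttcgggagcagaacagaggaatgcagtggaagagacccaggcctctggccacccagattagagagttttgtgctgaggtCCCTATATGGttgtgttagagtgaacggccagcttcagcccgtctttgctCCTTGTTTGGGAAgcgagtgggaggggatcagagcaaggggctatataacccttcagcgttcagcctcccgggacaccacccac
Vtn: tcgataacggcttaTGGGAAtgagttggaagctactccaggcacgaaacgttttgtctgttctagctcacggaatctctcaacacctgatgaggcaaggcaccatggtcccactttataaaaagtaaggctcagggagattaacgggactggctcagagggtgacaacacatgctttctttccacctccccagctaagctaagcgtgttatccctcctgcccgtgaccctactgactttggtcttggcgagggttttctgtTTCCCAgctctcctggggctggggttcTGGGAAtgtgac
Acta2 held 2 CArG-like sequences, 84 and 34 bases before the start, the second overlapping a TGGGAA that begins 27 bases before it. A CArG-like sequence was found in 1 of the 7 members and in 9.98% of 32851 promoters of this length, and a CArG box without mismatch in 0 of 7 and in 1.63%. The search with 1 mismatch was chosen after seeing the sequences. TGGGAA was found in 4 of 7 (Kcnj8, Abcc9, Vtn and Acta2) and in 25.6% of all promoters, and Vtn held 3 of them, the first 236 bases before the start. These matches describe letters only.

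The libraries held between 14627892 and 24594655 counts. Levels in CPM, counts relative to library size, use library sizes scaled by edgeR, and a gene with a count of 0 could still be at the level of 3 counts, 0.122 to 0.206 CPM. Trem2 ran from 8.05 to 55.6 CPM over the 6 App-KI libraries and from 1.85 to 3.83 CPM over the 6 Trem2-KO libraries, without overlap. The 10 hippocampal markers had a score, the mean log2 CPM of a list, between 6.09 and 6.44 in every library. Other tissue varied between libraries. The choroid plexus score ran from 0.72 to 6.18, and the score of meningeal and perivascular fibroblasts was at least 4.23 in each older Trem2-KO library and at most 3.96 in the other 9. None of the 15 genes of either list was at 0 in any library.

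Per kilobase of exon, Vtn, the adhesion protein vitronectin, led the members, with a median over the 12 libraries of 41.6 CPM per kb and a lowest value of 32.0. Rgs5, a regulator of G protein signalling enriched in pericytes, followed at 18.0, with 15.4 to 20.4 CPM per kb. Acta2, smooth muscle actin, had a median of 11.4 but ran from 8.60 to 26.4, so that its libraries overlapped those of Rgs5. Pdgfrb stood at 5.27 (4.34 to 6.38). Next came Myh11, the smooth muscle myosin heavy chain, at 2.13 (1.57 to 5.31), Kcnj8, the pore of the vascular ATP-sensitive potassium channel, at 1.97 (1.69 to 2.51), and Notch3, a receptor of mural cells, at 1.87 (1.47 to 2.30). The libraries of these 3 genes overlapped, and those of Myh11 reached into the range of Pdgfrb. Abcc9, the regulatory subunit that pairs with Kcnj8, stood at 0.92 CPM per kb and Anpep, the aminopeptidase CD13, at 0.90, with overlapping ranges.

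Tagln, the actin-binding protein transgelin, was last at 0.22 CPM per kb, from 4 to 21 counts per library, although it is an abundant protein of smooth muscle. Of its 1988 annotated exon bases 67.9% were shared with exons of other genes on the opposite strand, Pcsk7 and Gm48529, against 0% to 6.03% for the other 9 members. In the transcript sequences, 47.6% of its stretches of 50 bases also occurred in another gene, against at most 4.96% for the others. How the counting treated strand and overlap is not given in the sources used here, and the part of this overlap in the low count was not tested. In App-KI at 3 months the mean over 3 libraries was 21.5 ± 0.863 CPM (SD) for Pcsk7 and 0.619 ± 0.233 CPM for Gm48529. The values of Tagln are therefore uncertain, and scores of smooth muscle genes are given with and without it.

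**Figure D1:**
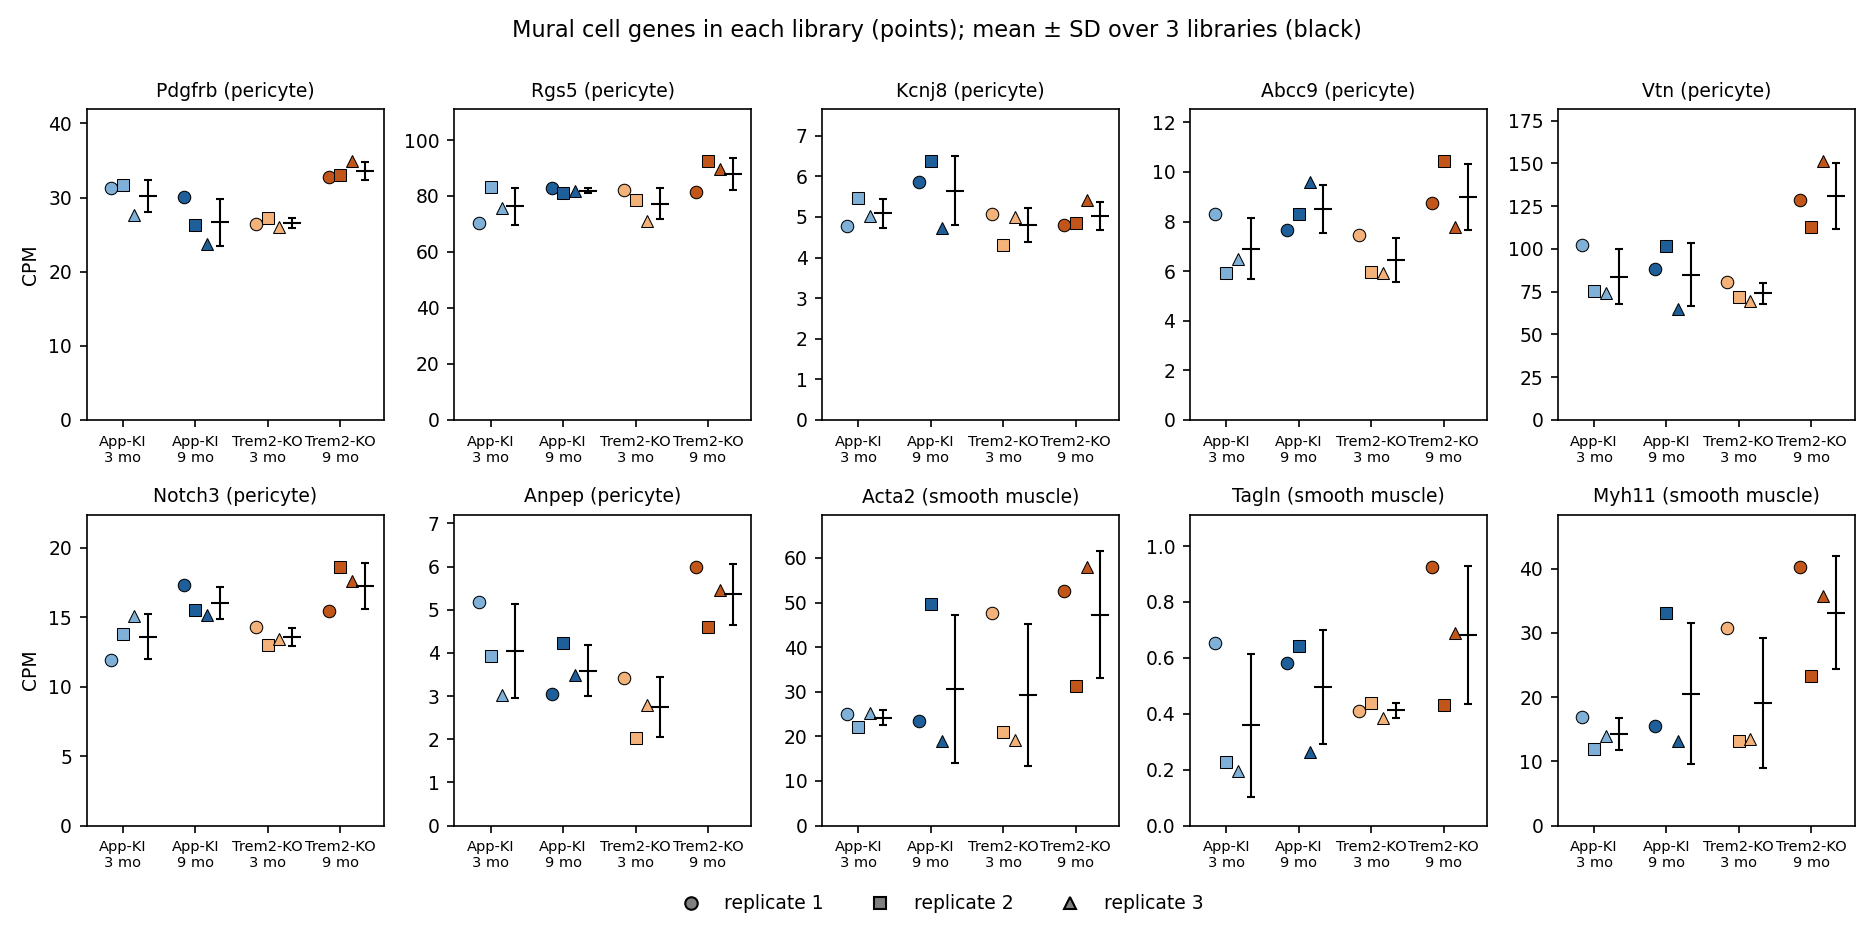
Level of each of the 10 genes in CPM (y axis, from 0) in the 4 groups (x axis); each point is 1 library, with the mean ± SD over 3 libraries in black. Pdgfrb, Vtn and Anpep sit higher in all 3 Trem2-KO libraries at 9 months than in the App-KI libraries of that age, while Acta2 and Myh11 spread widely within 3 of the 4 groups.

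The clearest movement among pericyte genes was in Trem2-KO mice between 3 and 9 months, where Pdgfrb, Vtn and Anpep rose. All 10 members had a positive log2 fold change there, with a median of 0.60 against 0.0023 over all 19152 genes tested. The median was 0.35 for the 7 pericyte members and 0.73 for the 3 smooth muscle members, of which 0 were called. In the quasi-likelihood fit of edgeR, with p adjusted by Benjamini-Hochberg over all genes tested, 3 of 10 members were called (adjusted p under 0.05), all higher, where 8.7% of all genes were called and 5.68% were called higher. In 5 members (Pdgfrb, Vtn, Anpep, Abcc9 and Notch3) the libraries of the 2 ages did not overlap, and all 5 were higher at 9 months, against 13.5% of all genes. An unadjusted p under 0.05 was found in 6 members and in 22.7% of all genes.

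Anpep trims peptides at the surface of pericytes and fibroblasts. Its libraries stood at 3.43, 2.02 and 2.80 CPM at 3 months and at 6.0, 4.6 and 5.46 CPM at 9 months in Trem2-KO mice. Every older library lay above every younger one. The log2 fold change was 0.99 ± 0.22 (SE; adjusted p = 0.00691 by edgeR). In App-KI mice the same gene stood at 5.18, 3.94 and 3.02 CPM at 3 months and 3.06, 4.24 and 3.48 CPM at 9 months, with overlap and a log2 fold change of -0.18 ± 0.22 (adjusted p = 0.765 by edgeR).

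Vitronectin binds integrins and anchors cells to matrix. Vtn was counted at 80.8, 71.9 and 69.4 CPM at 3 months and at 129, 113 and 151 CPM at 9 months in Trem2-KO mice. The lowest older library was above all App-KI libraries as well. Vtn rose by 0.83 ± 0.19 on the log2 scale (adjusted p = 0.0353 by edgeR). App-KI libraries held 102, 75.4 and 74.0 CPM at 3 months and 88.3, 102 and 64.9 CPM at 9 months, a log2 fold change of 0.02 ± 0.19 (adjusted p = 0.983 by edgeR).

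Pdgfrb, the receptor that recruits pericytes, moved less in size but with little spread. Its Trem2-KO libraries stood at 26.4, 27.3 and 26.0 CPM at 3 months and at 32.8, 33.0 and 34.9 CPM at 9 months. The ages did not overlap, and the log2 fold change was 0.34 ± 0.08 (adjusted p = 0.0150 by edgeR). In App-KI mice the libraries were at 31.3, 31.7 and 27.7 CPM at 3 months and at 30.1, 26.3 and 23.8 CPM at 9 months. These overlapped, with a log2 fold change of -0.18 ± 0.08 (adjusted p = 0.295 by edgeR).

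Leaving out single libraries ended some of these calls. Without Trem2-KO 3-month replicate 3 the adjusted p of Pdgfrb was 0.0742, and without Trem2-KO 3-month replicate 2 that of Anpep was 0.0527 (edgeR; over the 12 leave-outs from 0.0118 to 0.0742 and from 0.00392 to 0.0527). Vtn lost its call without 8 of the 12 libraries, namely App-KI 3-month replicate 2, App-KI 9-month replicate 1 and each of the 6 Trem2-KO libraries, with adjusted p from 0.0160 to 0.129 over the 12. The number of members called was 1 without Trem2-KO 3-month replicate 2 or 3 and 5 without App-KI 3-month replicate 1.

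The other pericyte members were not called in this comparison by edgeR, which called 1667 genes in all. DESeq2 called 1879 genes in all and 4 members, the same 3 and Notch3 (adjusted p = 0.0476). Abcc9 had a log2 fold change of 0.49 ± 0.15 (adjusted p = 0.0538 by edgeR), with 5.93 to 7.47 CPM at 3 months and 7.80 to 10.4 CPM at 9 months in Trem2-KO mice. Notch3 had 0.35 ± 0.11 (adjusted p = 0.0507), from 13 to 14.3 CPM at 3 months and 15.4 to 18.6 CPM at 9 months. Both sat just above the threshold. Without the filter on low counts edgeR called 2324 genes in all and 5 members. Abcc9, Notch3 and Rgs5 (adjusted p = 0.035) passed the threshold beside Pdgfrb and Anpep, and Vtn lost its call (adjusted p = 0.0508). Rgs5 had 0.19 ± 0.07 (adjusted p = 0.0943) with overlapping libraries, and Kcnj8 had 0.07 ± 0.15 (adjusted p = 0.841). The channel partners Kcnj8 and Abcc9 thus had different values, with 95% intervals of -0.25 to 0.38 and 0.17 to 0.81 that overlap.

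Other cell types moved in the same comparison, where 5.68% of all genes were called higher by edgeR. The fibroblast score went from 3.54 ± 0.26 to 4.58 ± 0.30 (SD, n = 3) in Trem2-KO mice, with 9 of 15 fibroblast genes called higher by edgeR and 11 by DESeq2, and the endothelial score from 4.75 ± 0.04 to 5.03 ± 0.03, with 6 of 15 called higher by both tools. With the fibroblast score as a covariate, 0 of 10 members and 68 of all genes were called by edgeR, and the log2 fold changes of Anpep, Vtn and Pdgfrb were 0.13, 0.02 and 0.18. The endothelial score as a covariate left 0 members and 8 genes called, and the log2 fold changes were 0.69, 0.09 and -0.11. Both scores were above the other 9 libraries in each of the 3 older Trem2-KO libraries. The median standard error over all genes was 0.123 without a covariate, 0.229 with the fibroblast score and 0.334 with the endothelial score. For Anpep, Vtn and Pdgfrb the standard errors were 0.22, 0.19 and 0.08 without a covariate. They were 0.34, 0.14 and 0.16 with the fibroblast score, lower for Vtn alone, and 0.62, 0.47 and 0.21 with the endothelial score. Border macrophage markers had a score of 0.96 to 1.5 in these 3 libraries and of at most 1.05 in the others, with 3 of 8 called higher with age in Trem2-KO mice, and their part was not tested. In App-KI mice, where the fibroblast score was 3.67 ± 0.27 and 3.57 ± 0.31, 0 of 10 members were called between the ages, where 6.66% of all genes were. Notch3 was the 1 member with an unadjusted p under 0.05 (log2 fold change 0.24 ± 0.11, against 17.1% of all genes) and the 1 whose libraries did not overlap, higher at 9 months as in 11.2% of all genes, and DESeq2 called 0.

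**Figure D2:**
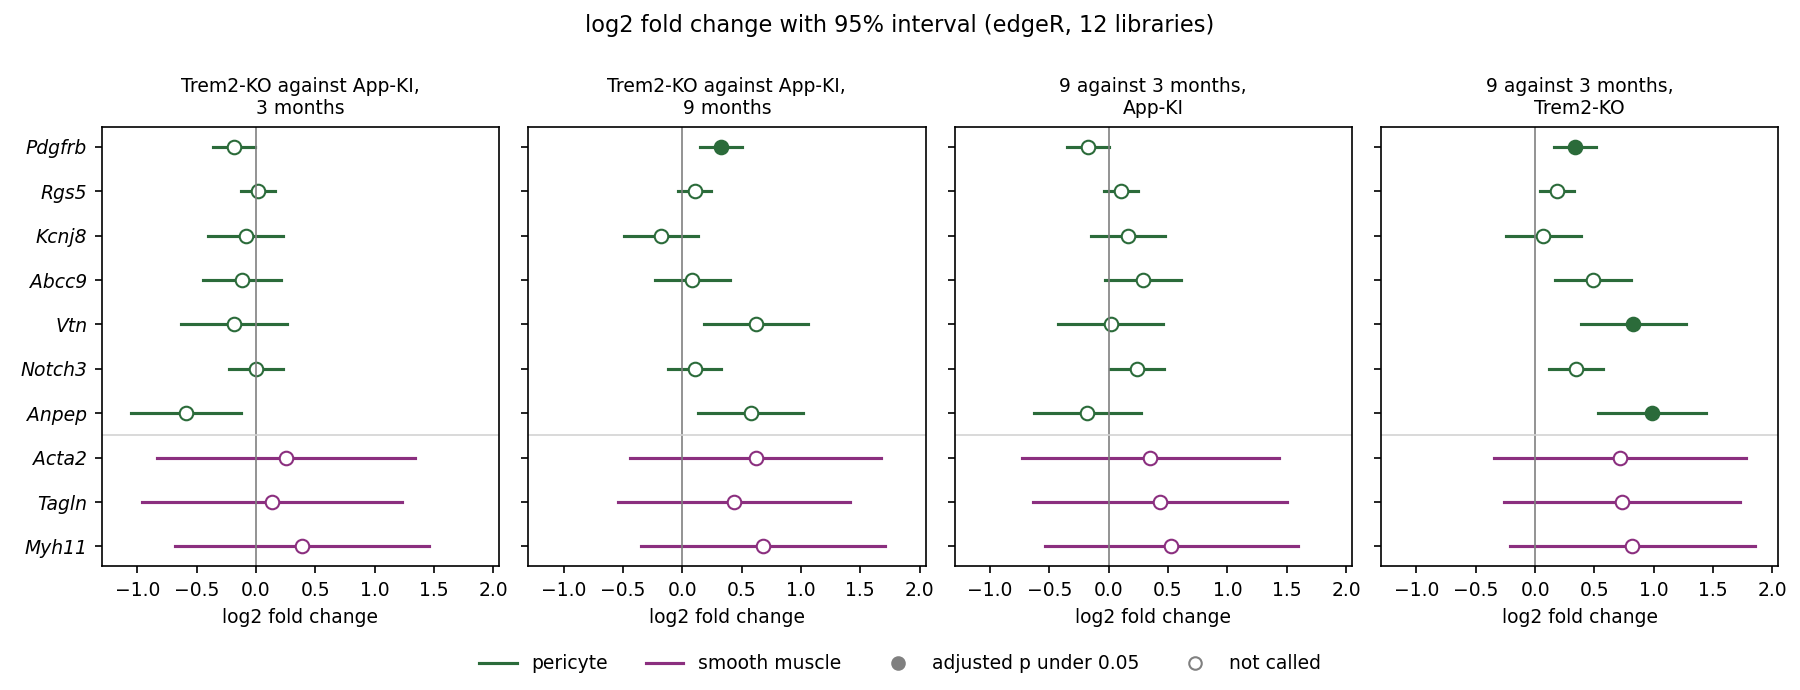
Log2 fold change (x axis) of each gene (y axis) in 4 comparisons; lines are 95% intervals from edgeR over 12 libraries and filled points are called. The 4 filled points are Pdgfrb between genotypes at 9 months and Pdgfrb, Vtn and Anpep between ages in Trem2-KO mice, and the intervals of the 3 smooth muscle genes are the widest.

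Between genotypes, Pdgfrb lay on opposite sides at the 2 ages. At 3 months its 3 Trem2-KO libraries were all below the 3 App-KI libraries (log2 fold change -0.19 ± 0.08, adjusted p = 0.408 by edgeR). At 9 months they were all above (0.33 ± 0.08, adjusted p = 0.0448). Pdgfrb was the 1 member called at 9 months, where 2.08% of all genes were called and 0.684% were called higher. That call was lost without 9 of the 12 libraries, kept without App-KI 3-month replicates 1 and 3 and App-KI 9-month replicate 1, and its adjusted p over the 12 ran from 0.0161 to 0.242. It was also lost in a fit of the 2 groups alone (adjusted p = 0.117). The log2 fold change itself ran from 0.25 to 0.42 over the leave-outs.

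Vtn and Anpep were also without overlap at 9 months, with 0.62 ± 0.19 (adjusted p = 0.190 by edgeR) and 0.58 ± 0.21 (adjusted p = 0.203) on the log2 scale. So 3 of 10 members were without overlap and higher in Trem2-KO mice, against 8.28% of all genes, and these 3 are the members called with age in Trem2-KO mice. The 2 comparisons share the Trem2-KO libraries at 9 months and are not independent. With DESeq2 Vtn passed the threshold too (adjusted p = 0.0494). The remaining pericyte genes had log2 fold changes of -0.18 ± 0.15 (Kcnj8), 0.08 ± 0.15 (Abcc9), 0.10 ± 0.07 (Rgs5) and 0.11 ± 0.11 (Notch3). Of the fibroblast genes 2 of 15 were called higher by edgeR and 8 by DESeq2 in the same comparison, and all 15 had positive values with a median of 1.04. Of the endothelial genes 2 of 15 were called higher by edgeR and 3 by DESeq2, with a median of 0.20. With either score as a covariate 0 members were called by edgeR, and the log2 fold change of Pdgfrb was 0.18 with the fibroblast score and 0.01 with the endothelial score.

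At the younger age 0 of 10 members were called between genotypes by edgeR, where 0.59% of all genes were, and DESeq2 called 0. An unadjusted p under 0.05 was found in 11.2% of all genes and in 2 members, Pdgfrb and Anpep (-0.59 ± 0.22, adjusted p = 0.289), and both values were negative. Pdgfrb was the 1 member without overlap, lower in Trem2-KO mice, as were 8.94% of all genes. The median over the 10 members was -0.04 at 3 months and 0.38 at 9 months, against 0.0028 and 0.0066 over all genes. For the 7 pericyte members it was -0.12 and 0.11. For the 3 smooth muscle members, of which 0 were called, it was 0.25 and 0.62.

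The difference between the ages' genotype effects was tested as an interaction. By edgeR 0 of 10 members were called, where 0.266% of all genes were. An unadjusted p under 0.05 was found in 3 members and in 6.04% of all genes. DESeq2 called 1 member and 102 genes in all. Pdgfrb had an interaction of 0.51 ± 0.12 on the log2 scale (adjusted p = 0.0983 by edgeR, 0.0289 by DESeq2, and 0.0326 without App-KI 9-month replicate 1). Anpep had 1.17 ± 0.31 (adjusted p = 0.198 by edgeR) and Vtn 0.81 ± 0.27 (adjusted p = 0.619). The age effects of these genes are thus not shown to differ between genotypes by the main test.

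Of the smooth muscle genes, Acta2 and Myh11 varied widely from mouse to mouse, in each group but App-KI at 3 months. For the poorly counted Tagln the SD was instead largest there relative to its mean, at 71.1%, and smallest in Trem2-KO at 3 months, at 6.56%. Acta2 was counted at 25.1, 22.2 and 25.2 CPM in App-KI at 3 months and at 23.4, 49.7 and 18.9 CPM at 9 months. In Trem2-KO mice it stood at 47.6, 21.0 and 19.3 CPM at 3 months and at 52.6, 31.3 and 58.1 CPM at 9 months. The libraries fell into 7 at 18.9 to 25.2 CPM, 1 at 31.3 and 4 at 47.6 or more, and the highest was 3.07 times the lowest.

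Myh11 followed the same libraries. Its App-KI values were 16.9, 11.9 and 14 CPM at 3 months and 15.5, 33.1 and 13.1 CPM at 9 months. Trem2-KO libraries held 30.8, 13.1 and 13.5 CPM at 3 months and 40.3, 23.3 and 35.7 CPM at 9 months. The 4 libraries with the most Acta2 were also the 4 with the most Myh11: App-KI 9-month replicate 2, Trem2-KO 3-month replicate 1 and Trem2-KO 9-month replicates 1 and 3. Each group except App-KI at 3 months held at least 1 of them.

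The SD of log2 CPM within groups was 0.57 for Acta2 and 0.55 for Myh11, larger than in 99.6% and 99.3% of tested genes with an average within 1 log2 CPM of theirs, whose medians were 0.097 and 0.11. Tagln, at 4 to 21 counts, had 0.52, with a median of 0.45 for genes of its level. Among pericyte genes the SD was 0.095 for Rgs5, 0.10 for Pdgfrb, 0.13 for Notch3, 0.14 for Kcnj8, 0.20 for Abcc9, 0.24 for Vtn and 0.30 for Anpep. Vtn stood out with a larger SD than 99% of genes of its level, while Kcnj8 and Notch3 were at or below the median of theirs.

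**Figure D3:**
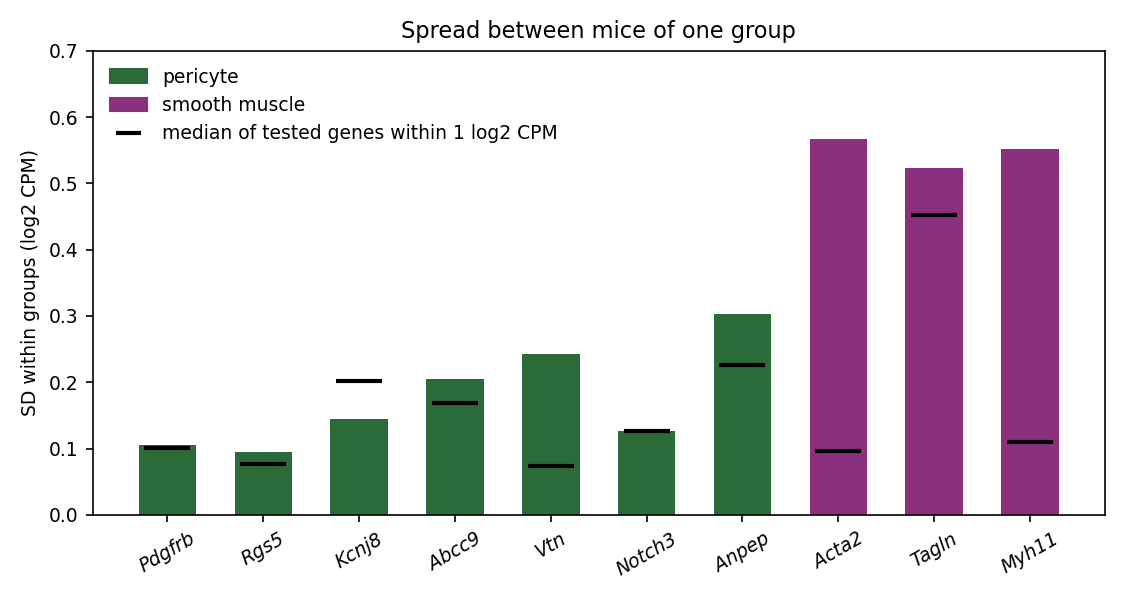
SD of log2 CPM within groups (y axis, from 0, 8 degrees of freedom) of each gene (x axis, pericyte in green, smooth muscle in purple), with the median of tested genes within 1 log2 CPM as a black line. Acta2 (0.57) and Myh11 (0.55) stand far above that median, and of the pericyte genes Vtn (0.24) lies farthest above its own.

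By edgeR 0 of the 3 smooth muscle genes were called in the 5 comparisons, where 0.266% to 8.7% of all genes were. An unadjusted p under 0.05 was found in 0 of the 3 and in 6.04% to 22.7% of all genes. So few genes cannot fall clearly below these shares. DESeq2 called 0 of the 2 to which it gave an adjusted p. The intervals were wide. The largest log2 fold changes were with age in Trem2-KO mice, at 0.72 ± 0.46 for Acta2 (95% interval -0.35 to 1.78, adjusted p = 0.416 by edgeR) and 0.82 ± 0.45 for Myh11 (-0.22 to 1.86, adjusted p = 0.333). Between genotypes at 9 months they were 0.62 ± 0.46 and 0.68 ± 0.45, and at 3 months 0.25 ± 0.47 and 0.39 ± 0.47. These intervals include changes as large as those of Anpep, so the data do not show that smooth muscle genes were alike between groups. These 4 values at 9 months or with age in Trem2-KO mice kept their sign in each leave-out, between 0.37 and 1.32. In the 2 other pairwise comparisons 1 mouse turned it. Without Trem2-KO 3-month replicate 1 the genotype difference at 3 months was -0.26 for Acta2 and -0.11 for Myh11, and without App-KI 9-month replicate 2 the age difference in App-KI mice was -0.19 for Acta2 and -0.0038 for Myh11.

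As scores, the contrast of the 2 classes was a description only. The pericyte score stood at 4.34, 4.37 and 4.42 in Trem2-KO mice at 9 months and at 3.83 to 4.23 in the other 9 libraries, without overlap. The smooth muscle score reached from 2.87 to 3.70 in that group and from 2.16 to 3.42 in the others, with overlap. The smooth muscle score minus the pericyte score was -1.68 ± 0.27 (SD, n = 3) in App-KI at 3 months, -1.39 ± 0.54 in App-KI at 9 months, -1.28 ± 0.36 in Trem2-KO at 3 months and -1.0 ± 0.44 in Trem2-KO at 9 months. These groups overlapped. In the 4 libraries high in Acta2 the difference was -0.87 to -0.65, and in the other 8 it was -1.91 to -1.38. These 4 were picked by Acta2, which is part of the score, so this separation follows at least in part from the choice. With Acta2 and Myh11 alone the difference was 0.14 ± 0.16, 0.39 ± 0.64, 0.52 ± 0.59 and 0.89 ± 0.43 in the same order of groups, so its sign, which depends on which genes enter, turned with the poorly counted Tagln left out. The order of the group means was the same and the groups again overlapped. The score of these 2 genes was 5.26 to 5.53 in the same 4 libraries and 3.99 to 4.76 in the other 8, which again follows from the choice of the 4.

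**Figure D4:**
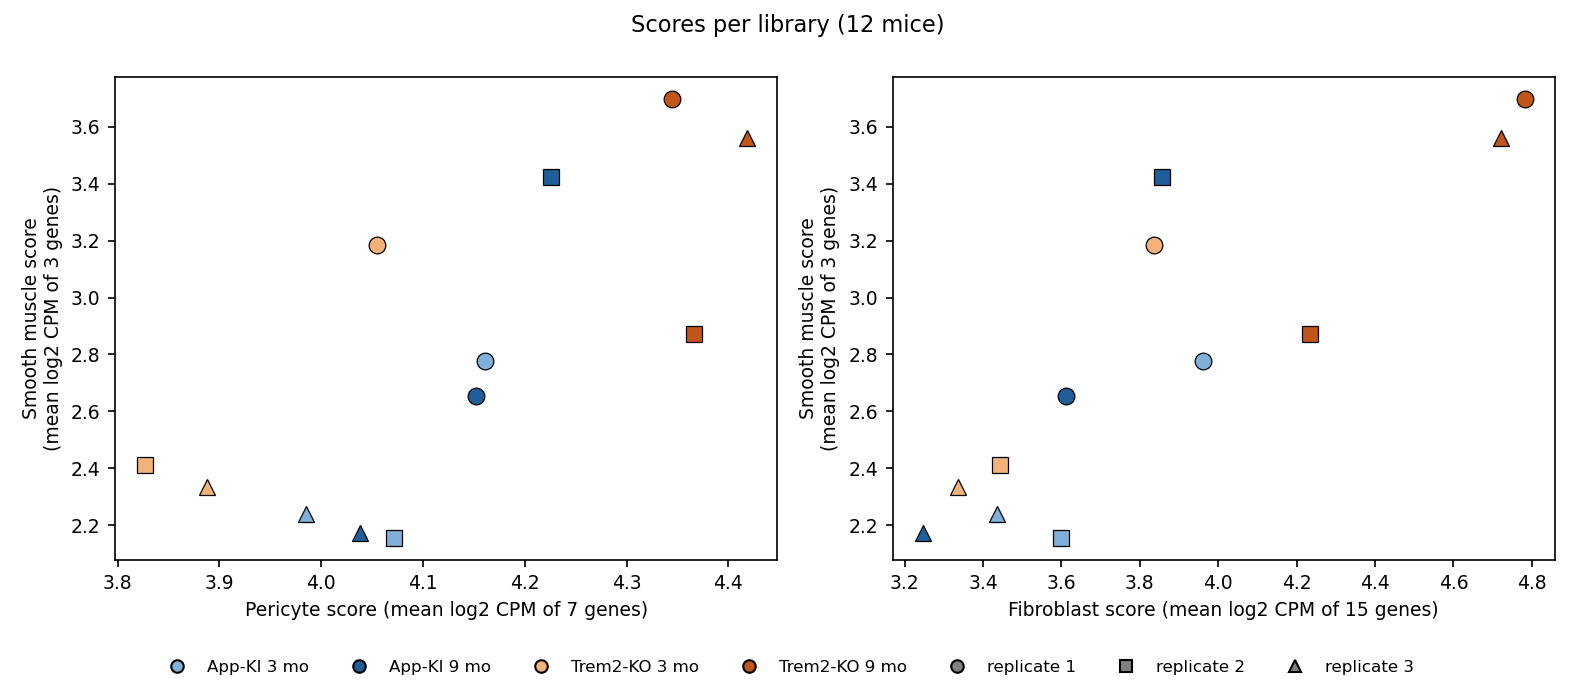
Smooth muscle score (y axes, mean log2 CPM of 3 genes) against the pericyte score of 7 genes (left) and the fibroblast score of 15 genes (right); each point is 1 of 12 libraries, coloured by group and shaped by replicate. The Trem2-KO libraries at 9 months lie farthest right in both panels, and 4 libraries from 3 groups have a smooth muscle score above 3.

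A second list of contractile genes, which shares no member with the first, ranked the libraries alike. Its 17 tested genes had scores of 3.54, 3.58, 3.77 and 3.75 in App-KI 9-month replicate 2, Trem2-KO 3-month replicate 1 and Trem2-KO 9-month replicates 1 and 3, and of 2.83 to 3.30 in the other 8. Des, the intermediate filament desmin, ran from 1.37 to 2.45 CPM in App-KI at 3 months and from 4.46 to 5.83 CPM in Trem2-KO at 9 months. It ran from 2.43 to 4.18 CPM in App-KI at 9 months and from 2.36 to 4.45 CPM in Trem2-KO at 3 months. All older Trem2-KO libraries, replicate 2 among them, thus lay above every App-KI library in Des, so Des alone did not rank the libraries in this way. The lowest of them, at 4.456 CPM, was level with the highest Trem2-KO library at 3 months, at 4.454 CPM. In the 4 libraries named above, in the same order, the fibroblast score was 3.86, 3.84, 4.78 and 4.72. The choroid plexus score was 0.72, 3.99, 6.14 and 1.59. Fibroblast scores in the other 8 were 3.25 to 4.23. Within each group, the library with the highest smooth muscle score also had the highest fibroblast score. The full order of the libraries matched in each group but App-KI at 3 months. In App-KI at 9 months, replicates 1 to 3 had smooth muscle scores of 2.65, 3.42 and 2.17. Their fibroblast scores were 3.61, 3.86 and 3.25. In Trem2-KO at 3 months the smooth muscle scores were 3.19, 2.41 and 2.33 and the fibroblast scores 3.84, 3.44 and 3.34. The libraries high in smooth muscle genes thus ranged from the lowest choroid plexus score of all to one near the highest, and the part of neighbouring tissue in these values was not tested.

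Over the 45 pairs of members, log2 CPM varied together in 7 pairs (Pearson's r, permutation test with 100000 resamples, two-sided, adjusted over the 45), and in 2 pairs once group means were taken out. For the latter, the deviations were shuffled over all 12 libraries, although they hold 8 degrees of freedom. The p-values within groups are therefore too small, and calls within groups are to be read with that limit. Acta2 and Myh11 had r = 0.97 (adjusted p = 0.0009 by permutation) and Spearman's rho = 0.91 (adjusted p = 0.0045 by permutation) over 12 libraries. Without the 2 libraries farthest from the median of Acta2 r was 0.96, and within groups it was 0.97 (adjusted p = 0.00045 by permutation). Vtn varied with Acta2 (r = 0.79, rho = 0.86, adjusted p = 0.0204 and 0.0142 by permutation) and with Myh11 (r = 0.81, rho = 0.83, adjusted p = 0.0196 and 0.0161 by permutation). Within groups these were 0.71 and 0.73, each with adjusted p = 0.0950 by permutation, and without the 2 farthest libraries of Vtn they were 0.58 and 0.65. Of the pericyte pairs 3 of 21 were called (Rgs5 with Notch3, Vtn with Anpep and Pdgfrb with Vtn), and 0 of 21 within groups. By Spearman's rho 2 of them were, and Rgs5 with Notch3 was not (rho = 0.72, adjusted p = 0.0600 by permutation). Mixed pairs gave 3 of 21, and within groups 1, Vtn with the uncertain Tagln.

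The genes whose log2 CPM was most like the smooth muscle score over the 12 libraries, by Pearson's r as a measure of likeness, were Eln (0.94), the elastin of artery walls, Bgn (0.94), the matrix proteoglycan biglycan, Foxc1 (0.92), a transcription factor of mural and meningeal cells, Des (0.91), Fbln5 (0.91), a protein of elastic fibres, and Atp13a5 (0.91), a pericyte marker. For the score of Acta2 and Myh11 alone, 4 of these 6 stayed among the 6 most alike (Bgn, Fbln5, Eln and Des), and Foxc1 (0.88) and Atp13a5 (0.86) gave way to Mylk (0.91) and Myl9 (0.90), the kinase and the light chain of smooth muscle myosin. Those most like the pericyte score were Efemp1 (0.97), a matrix protein, Selenbp1 (0.96), Aldh1a2 (0.95), the retinoic acid enzyme of meningeal cells, Cp (0.95), ceruloplasmin, Serping1 (0.94), the complement C1 inhibitor, and Cped1 (0.94). All points share their libraries, and the pericyte score differs between groups.

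With age in Trem2-KO mice, where 5.68% of all genes were called higher, 3 of 16 other tested pericyte genes were. The median of the 16 was 0.30. The 3 called were Atp2a3 (0.67 ± 0.11), a calcium pump, Tbx18 (0.89 ± 0.22), a mural transcription factor also found in fibroblasts, and Cd248 (0.46 ± 0.13), the surface protein endosialin of pericytes and fibroblasts. At 9 months Cd248 (0.62 ± 0.13) and Tbx18 (0.88 ± 0.22) were called higher in Trem2-KO than in App-KI mice. In App-KI mice Atp2a3 rose with age (0.43 ± 0.12) and Ndufa4l2, a mitochondrial protein of pericytes, fell by 1.05 ± 0.31. At 3 months 0 of 16 were called between genotypes by edgeR and by DESeq2, and 2 had an unadjusted p under 0.05, as had 11.2% of all genes.

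Of the 17 other tested contractile genes, 4 were called higher with age in Trem2-KO mice: Csrp1 (0.27 ± 0.05), Cald1 (0.40 ± 0.08), Synpo2 (0.61 ± 0.14) and Smtn (0.51 ± 0.14), which encode proteins bound to actin or its anchors, some also made in other cells. The median of the 17 was 0.40, and 5.68% of all genes were called higher in this comparison. Smtn was the 1 called in App-KI mice (0.53 ± 0.14). Between genotypes at 9 months all 17 had positive values with a median of 0.43, and 0 were called by edgeR or DESeq2. An unadjusted p under 0.05 was found in 5 of the 17 and in 13.6% of all genes. The 4 regulators of these genes, Srf, Myocd, Mrtfa and Mrtfb, had 0 calls by edgeR or DESeq2 in each comparison and medians between -0.024 and 0.071. They had 0 at an unadjusted p under 0.05, against 6.04% to 22.7% of all genes.

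Ligands and partners of the members were described from lists fixed with them. Of the 5 PDGF genes, Pdgfd, a ligand of PDGFRβ, rose with age in Trem2-KO mice (0.68 ± 0.14) and Pdgfra, the receptor of oligodendrocyte precursors and fibroblasts, rose with age in both genotypes (0.28 ± 0.08 in Trem2-KO and 0.32 ± 0.08 in App-KI). With age, 5.68% of all genes were called higher in Trem2-KO and 3.95% in App-KI mice. Pdgfb, the endothelial ligand, was not called in any comparison, and its largest value was 0.27 ± 0.08 between genotypes at 3 months (adjusted p = 0.163 by edgeR). In the Notch list of 14 genes, Notch4 (0.49 ± 0.13), Jag1 (0.44 ± 0.12), a ligand of Notch3, and Notch2 (0.76 ± 0.20) rose with age in Trem2-KO mice. Hey1 fell by 0.21 ± 0.06 in that comparison, where 3.02% of all genes were called lower. In the other comparisons edgeR called 0 of the list, against 0.266% to 6.66% of all genes. There 2 to 3 had an unadjusted p under 0.05, against 6.04% to 17.1% of all genes. DESeq2 called 1 there, at 3 months between genotypes. The list of potassium channel and vascular tone genes had 0 of 13 called by edgeR or DESeq2 in every comparison, where edgeR called 0.266% to 8.7% of all genes. The list had 1 to 3 at an unadjusted p under 0.05, against 6.04% to 22.7% of all genes. Its smallest p between genotypes at 9 months was that of Kcnmb1, the β subunit of the calcium-activated potassium channel of smooth muscle (0.83 ± 0.25, adjusted p = 0.0953 by edgeR).

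The integrin subunits among the partners of vitronectin differed in their order over the groups. Itgb1, a subunit made by many cell types, had its highest mean where Vtn had, at 118 ± 5.34 CPM (SD, n = 3) in Trem2-KO at 9 months, against 94.6 ± 7.39 and 112 ± 3.93 CPM in App-KI at 3 and 9 months and 98.7 ± 11.4 CPM in Trem2-KO at 3 months. It rose with age in Trem2-KO mice (0.26 ± 0.07) and had 0.08 ± 0.07 between genotypes at 9 months (adjusted p = 0.694 by edgeR). That was the 1 positive value there among the 5 tested genes of the list, whose median was -0.62, with 2 called lower by edgeR. Itgb5, an integrin subunit also made by microglia, went from 65.7 ± 4.45 to 146 ± 2.98 CPM (SD, n = 3) between 3 and 9 months in App-KI and from 56.8 ± 4.51 to 92.3 ± 8.77 CPM in Trem2-KO. It rose with age in both genotypes (1.15 ± 0.07 and 0.70 ± 0.07) and was lower in Trem2-KO at 9 months (-0.66 ± 0.07), where Vtn stood higher in every library. The score of 12 microglial genes went, in App-KI, from 4.99 ± 0.030 (SD, n = 3) at 3 months to 6.49 ± 0.055 at 9 months, and in Trem2-KO from 4.85 ± 0.050 to 5.59 ± 0.020, and its part in Itgb5 was not tested. Of the 11 TGF-β and angiopoietin genes, 8 rose with age in Trem2-KO mice, where 5.68% of all genes were called higher. Among the 8 were Angpt2 (1.35 ± 0.23), an endothelial ligand that loosens the contact of pericytes, and Eng (0.39 ± 0.09), an endothelial co-receptor. In App-KI mice, where 3.95% of all genes were called higher, 4 of the 11 rose, led by Tgfb1 (1.09 ± 0.14) and its receptor Tgfbr2 (0.99 ± 0.10), which microglia also express. Tgfbr1 (-0.41 ± 0.07) and Tgfbr2 (-0.40 ± 0.10) were lower in Trem2-KO mice at 9 months.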

How the data were processed

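RNA from hippocampus was extracted with a Quick-RNA miniprep kit and libraries were made with a SMART-Seq kit for mRNA, per the labels' protocols. The authors deposited raw read counts per gene, as whole-number values show. The submitters' processing notes list DESeq2 1.36.0, R 4.2.0, featureCounts 2.0.3 and STAR 2.7.10a, with the build GRCm39 and no settings. Symbols and exon lengths and overlaps came from GENCODE M21 on GRCm38, another build, which matched 52073 of 56980 identifiers, so no gene coordinates of the files' build are given.

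The 19152 genes kept by filterByExpr (minimum count 10, minimum total 15) were normalised by TMM size factors and fitted with edgeR 4.0.16 (R 4.3.3), quasi-likelihood with robust dispersion, 1 term per group over 12 libraries, 8 residual degrees of freedom, Benjamini-Hochberg adjustment over all tested genes. Log2 fold changes are without moderation, with a standard error derived from the F statistic. Log2 CPM used a prior count of 2. Replicate numbers follow accession order. The labels give each library an identifier of its own and no batch, and p-values measure the spread between these libraries. Intervals of fold changes carry that spread, while the limit for a count of 0 covers counting error only, since reads carry no molecular identifiers.

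Members, lists and tests were chosen with earlier results of these data known. Named genes are all 10 members, up to 4 genes with the smallest p from each list, and the 6 genes most like each score among those whose average log2 CPM is 1 or more. Alternatives were DESeq2 1.42.0, other size factors, no filter, 2-group fits, leaving out each library, and fibroblast or endothelial scores as covariates.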

Additional observations from a re-analysis of the deposited data

Results flagged for a closer look

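Pdgfrb was singled out because its genotype difference had opposite signs at the 2 ages with no overlap between libraries: all 3 Trem2-KO libraries lay below the App-KI libraries at 3 months and all 3 lay above them at 9 months. The gap at 3 months was narrow, with 27.3 CPM in the highest Trem2-KO library and 27.7 CPM in the lowest App-KI library. How many of all genes meet this rule was not counted. The interaction on the log2 scale was 0.51 ± 0.12, with an adjusted p = 0.0983 by edgeR over all genes, so the difference did not pass the threshold of the main test. That test uses the same values that singled out the gene. Over its alternatives the adjusted p ran from 0.00823 (no filter on low counts) to 0.9999 (endothelial score as a covariate).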

How the results depend on the processing

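The labels give no replicate numbers. No paired analysis was possible because the numbers used here follow accession order only. With DESeq2 261 genes were called between genotypes at 3 months (edgeR 113), 540 at 9 months (edgeR 398) and 102 in the interaction (edgeR 51). It called 2 members at 9 months between genotypes and 1 in the interaction. Without the filter on low counts the genes called were 347 at 3 months, 831 at 9 months (against 398) and 187 in the interaction. With age in Trem2-KO mice 2324 genes (against 1667) and 5 members were called (with Vtn lost, adjusted p = 0.0508 by edgeR). In the interaction 2 members were called. Fits of only the 2 groups gave 218 genes at 3 months and 0 members at 9 months. The causes were not tested.

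The fibroblast score as a covariate left 32 genes and 0 members between genotypes at 9 months, 68 genes and 0 members with age in Trem2-KO mice and 3 genes in the interaction. Log2 fold changes that turned were, at 9 months, Vtn -0.13, Anpep -0.23, Acta2 -1.02, Tagln -1.45 and Myh11 -0.97, with age in Trem2-KO mice Kcnj8 -0.16, Acta2 -1.0, Tagln -1.35 and Myh11 -0.92, and in the interaction Vtn -0.059, Acta2 -1.39, Tagln -1.99 and Myh11 -1.52. The endothelial score left 19 genes and 0 members, 8 genes and 0 members, and 0 genes in the same 3 comparisons. With it the values that turned were Kcnj8 0.036 and Notch3 0.028 at 3 months, Acta2 -0.62, Tagln -0.85 and Myh11 -0.51 at 9 months, Vtn -0.022 with age in App-KI mice, Pdgfrb -0.11, Kcnj8 -0.42, Acta2 -0.99, Tagln -1.18 and Myh11 -0.83 with age in Trem2-KO mice, and Rgs5 -0.035, Notch3 -0.0077, Acta2 -1.24, Tagln -1.45 and Myh11 -1.26 in the interaction. The causes were not tested.

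Leaving out 1 library at a time, the genes called ran from 26 to 154 and from 175 to 556 between genotypes at 3 and 9 months, from 788 to 1523 and from 769 to 1920 with age in App-KI and Trem2-KO mice, and from 29 to 76 in the interaction. Members called ran from 0 to 1 at 9 months, from 1 to 5 with age in Trem2-KO mice and from 0 to 1 in the interaction. Log2 fold changes that turned in at least 1 leave-out ran, at 3 months, from -0.043 to 0.079 (Rgs5), -0.23 to 0.042 (Abcc9), -0.095 to 0.076 (Notch3), -0.17 to 0.97 (Tagln), -0.26 to 0.48 (Acta2) and -0.11 to 0.60 (Myh11), at 9 months from -0.037 to 0.17 (Abcc9), with age in App-KI mice from -0.36 to 0.050 (Anpep), -0.13 to 0.19 (Vtn), -0.19 to 0.59 (Acta2) and -0.0038 to 0.75 (Myh11), with age in Trem2-KO mice from -0.0062 to 0.11 (Kcnj8), and in the interaction from -0.53 to 0.61 (Tagln). Pairs of members varying together numbered 7, and 2 on deviations from group means, where the p-values are too small as described above. The CArG box was in 0 members and in 1 with up to 1 G or C in its core. Other size factors changed no member's call. With Acta2 and Myh11 alone, chosen after seeing the data, the smooth muscle minus pericyte score was 0.14 and 0.39 in App-KI and 0.52 and 0.89 in Trem2-KO mice at 3 and 9 months; leaving out Tagln, the gene with the fewest counts, raises the score by construction.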

Other observations

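The basement membrane, the sheet of matrix that pericytes share with the endothelium, was described by 13 genes. With age in Trem2-KO mice, where 5.68% of all genes were called higher by edgeR, 3 of the 13 were. The median log2 fold change over the list was 0.45. The 3 called were Lamb2, a laminin chain (0.62 ± 0.07), Hspg2, the proteoglycan perlecan (0.90 ± 0.17), and Nid1, which links laminin to collagen (0.53 ± 0.13). In App-KI mice Hspg2 was the 1 called (0.60 ± 0.18). Between genotypes at 9 months Lamb2 (0.34 ± 0.07) and Nid1 (0.53 ± 0.13) were higher in Trem2-KO mice. The list's score was 4.70 to 4.92 in the older Trem2-KO libraries and at most 4.54 in the others. Fibroblasts and endothelial cells also make these proteins, and the part of each cell type was not tested.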
